A study of Rattus norvegicus with 8 samples.

Results

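The genes described here mark the blood vessels of the brain. A set of 34 gene symbols was listed, made of 13 endothelial core genes, 9 genes of the blood-brain barrier, 8 pericyte genes and 4 smooth muscle genes. Of these 34, 32 had a probe set named for that gene alone among the 14506 measured genes, and Vwf and Foxf2 were not analysed here. Each gene was read from 1 probe set, the brightest by mean over the 8 arrays.

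RNA came from the hypothalamus of female Sprague-Dawley rats aged 21 days and was hybridised to Affymetrix Rat Gene 1.0 arrays, 2 per group. CR-l offspring had calorie-restricted mothers and belong to the leptin treatment, and CR-s offspring had such mothers and belong to the saline treatment. Con-l and Con-s offspring had normally fed mothers and belong to the leptin and the saline treatment. Restricted mothers lost 50% of their calories from gestation day 11 to 21 and were also restricted after birth, and leptin or saline was given from postnatal day 2 to 8. The sample names do not settle whether pups or mothers received it. The design note calls 1 group Con-r, which was read as Con-l from the sample titles. The labels do not say whether an RNA sample pools animals or litters, so the p-values measure only the spread between these 8 samples.

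Brain endothelial cells are joined by tight junctions and carry selective transporters, which together form the blood-brain barrier. Pericytes sit on capillaries inside the vascular basement membrane, and smooth muscle cells wrap arterioles; both are called mural cells. In the hypothalamus this wall separates neurons that read hormones such as leptin from the blood, except near the median eminence, where capillaries are fenestrated.

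Array medians lay between 111.8 and 114.1 intensity units, and within each group the arrays A and B had a correlation of 0.997 over genes, which are not independent of each other. All 16 hypothalamic marker genes looked at were measured, at mean log2 intensities of 6.35 to 12.08. The measured vessel genes had a median replicate difference of 0.05 to 0.07 on the log2 scale in the 4 groups, against 0.08 to 0.09 for all genes. Levels of different probe sets are not comparable, so each gene is compared only with itself. Sums over a gene list, given for other cells, are compared only between arrays, and the brightest probe sets weigh most in them.

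Promoter sequence was available in the RefSeq tables (build GRCr8) for 22 of the 32 genes. The 250 bases before the annotated start are shown for a mural gene that was lower in CR (Rgs5), a mural gene that was level (Acta2), an endothelial gene that was lower in CR without passing the test (Kdr) and an endothelial gene that was level (Cldn5). Capitals mark matches on either strand to the ETS core GGAAG, which is bound by a factor family active in endothelium, and to the SOX core AACAAT.
Rgs5, chr13:84380827-84381076, plus strand: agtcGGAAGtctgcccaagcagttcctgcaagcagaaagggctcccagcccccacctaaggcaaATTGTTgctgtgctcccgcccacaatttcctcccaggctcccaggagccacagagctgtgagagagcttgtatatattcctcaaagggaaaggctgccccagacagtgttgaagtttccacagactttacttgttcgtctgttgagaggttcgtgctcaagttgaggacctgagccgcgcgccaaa
Acta2, chr1:241172504-241172753, minus strand: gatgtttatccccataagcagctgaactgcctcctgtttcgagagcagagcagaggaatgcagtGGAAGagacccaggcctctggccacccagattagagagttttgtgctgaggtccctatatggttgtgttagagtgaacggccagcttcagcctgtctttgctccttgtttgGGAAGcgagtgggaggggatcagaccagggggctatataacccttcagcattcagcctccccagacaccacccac
Kdr, chr14:32571813-32572062, plus strand: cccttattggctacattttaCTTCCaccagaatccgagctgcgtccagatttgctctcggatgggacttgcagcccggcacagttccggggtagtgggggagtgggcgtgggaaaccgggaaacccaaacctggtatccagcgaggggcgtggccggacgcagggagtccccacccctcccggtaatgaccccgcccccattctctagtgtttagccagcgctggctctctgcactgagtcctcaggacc
Cldn5, chr11:95718599-95718848, minus strand: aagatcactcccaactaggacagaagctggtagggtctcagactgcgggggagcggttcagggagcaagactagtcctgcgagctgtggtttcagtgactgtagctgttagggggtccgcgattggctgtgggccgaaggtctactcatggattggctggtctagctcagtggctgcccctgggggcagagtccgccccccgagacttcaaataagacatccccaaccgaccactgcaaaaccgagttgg

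In these windows Rgs5 has 1 ETS and 1 SOX match, Acta2 has 2 ETS matches, Kdr has 1 ETS match, and Cldn5 has none. Over windows of 300 bases, which add 50 bases after the start, the ETS core occurred in 16 of 23 promoter entries of these genes, against 70.1% of all 33469 entries. ACGTG, the hypoxia response core, occurred in 5 of 23 entries against 19.3%, and AACAAT in 4 of 23 against 11.7%. The CArG box, which serum response factor binds in smooth muscle genes, occurred in none of the 23 entries under its strict letters, against 1.64% of all entries. Runs that differ from it by 1 letter, such as ccctatatgg in the Acta2 window, were not counted. The smooth muscle genes Tagln and Myh11 had no promoter entry. The glucocorticoid response element, searched as a full palindrome, was also in none of them, against 0.0149% of all entries. Both strands were searched, matches may overlap, and a match is only a run of letters.

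Averaged over leptin and saline, the question was how vessel genes of restricted offspring differed from those of controls. In all, 2 mural genes were lower in CR than in Con and passed the test, the pericyte gene Rgs5 and the smooth muscle gene Tagln. No endothelial core or barrier gene passed. Differences were negative in 9 of 12 endothelial core, 3 of 9 barrier, 6 of 7 pericyte and 4 of 4 smooth muscle genes. The endothelial core ranged from Kdr at -0.29 to Sox17 at 0.13. The 2 genes that passed are 6.25% of 32, where 1.21% of all genes passed and 0.882% passed as lower. In whole tissue, fewer cells of a type and less RNA per cell cannot be told apart.

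**Figure D1:**
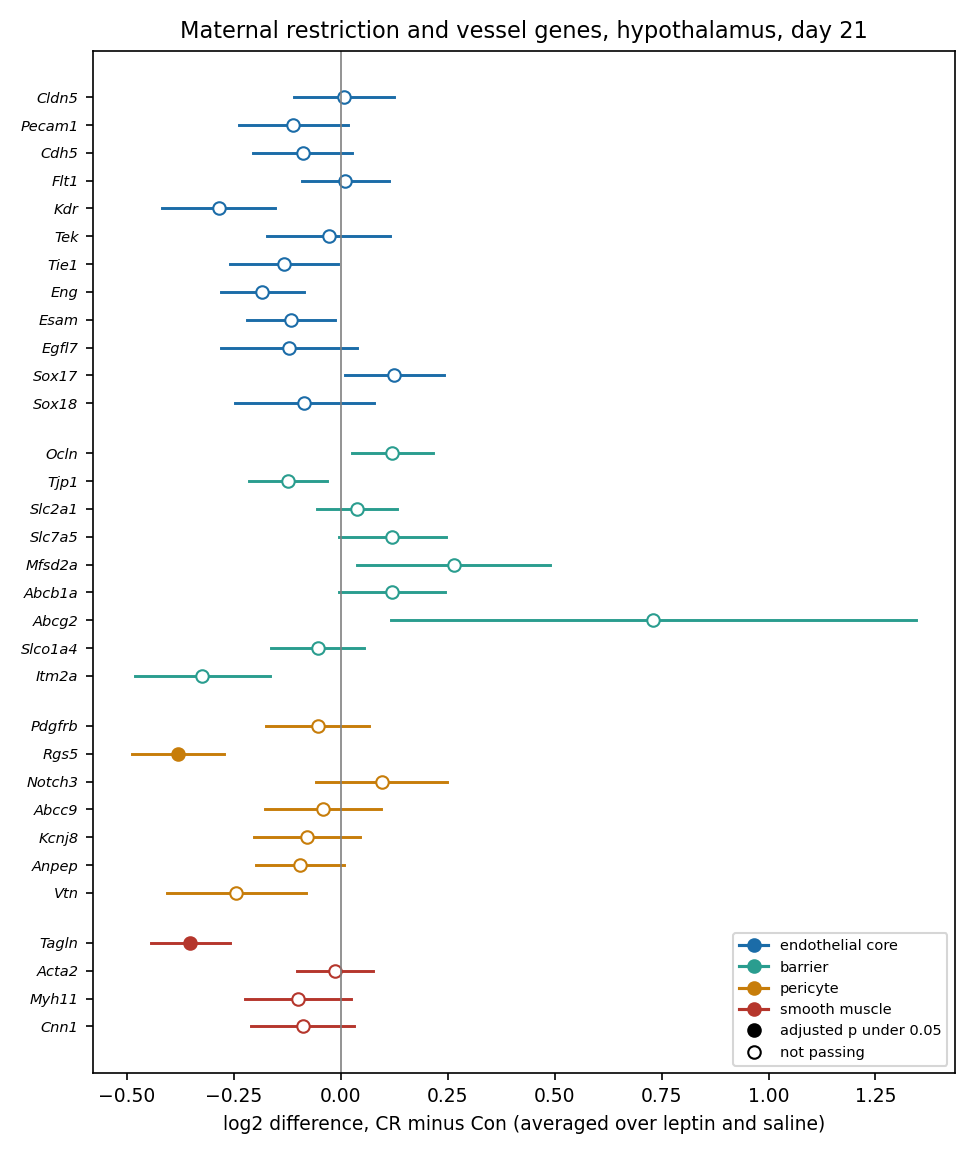
Log2 difference CR minus Con for the 32 measured vessel genes, averaged over leptin and saline, with 95% confidence intervals from limma; colours mark the 4 gene classes and filled points passed at an adjusted p under 0.05. Only Rgs5 (-0.38) and Tagln (-0.35) are filled, and Abcg2 (0.73) has the widest interval.

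Rgs5, a regulator of G protein signalling that is abundant in brain pericytes, had log2 intensities of 10.60 and 10.58 in CR-l and 10.68 and 10.81 in CR-s, against 11.11 and 11.07 in Con-l and 11.02 and 10.996 in Con-s. All 4 CR arrays lay below all 4 Con arrays. The mean was 10.67 ± 0.10 in CR and 11.05 ± 0.05 in Con (SD, n = 4 each). Rgs5 fell 1.30-fold, a log2 difference of -0.38 (SE 0.05, 95% interval -0.49 to -0.27, limma adjusted p = 0.0223).

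Tagln encodes transgelin, an actin-binding protein of smooth muscle. It had 7.57 and 7.53 in CR-l and 7.53 and 7.57 in CR-s, against 8.02 and 8.04 in Con-l and 7.76 and 7.79 in Con-s. The CR arrays were nearly identical to each other, and the Con arrays split by treatment, with Con-l above Con-s. Tagln fell 1.28-fold, a log2 difference of -0.35 (SE 0.04, 95% interval -0.44 to -0.26, limma adjusted p = 0.0223).

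Neither call outlasted the loss of an array. Leaving out any 1 of the 8 arrays gave adjusted p-values of 0.0605 to 0.0951 for Rgs5 and 0.0622 to 0.0951 for Tagln, with log2 differences of -0.41 to -0.35 for Rgs5 and -0.36 to -0.34 for Tagln. With all probe sets tested together, named or not, both had an adjusted p of 0.0788.

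The other smooth muscle genes differed less than Tagln. Acta2, smooth muscle actin, had 9.55 and 9.55 in CR-l and 9.52 and 9.52 in CR-s, against 9.57 and 9.57 in Con-l and 9.51 and 9.55 in Con-s. Its arrays overlapped almost fully, with a log2 difference of -0.01 (95% interval -0.10 to 0.08, adjusted p = 0.906). Myh11, the smooth muscle myosin heavy chain, differed by -0.10 (SE 0.05, adjusted p = 0.422), and Cnn1, the actin-binding calponin, by -0.09 (SE 0.05, adjusted p = 0.459). Myh11 and Cnn1 were dim, with mean log2 intensities of 6.78 and 5.84, at percentiles 38.4 and 23.2 of all genes. Whether low signal hid a difference in them was not tested.

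Among the pericyte genes, Vtn was second to Rgs5 in size. Vtn encodes the adhesion protein vitronectin and had 7.65 and 7.80 in CR-l and 7.69 and 7.78 in CR-s, against 8.08 and 7.81 in Con-l and 7.99 and 8.01 in Con-s. Its groups did not overlap, although Con-l replicate B lay only just above the highest CR array, and the difference of -0.24 did not pass (SE 0.07, adjusted p = 0.155). Anpep, the aminopeptidase N of pericytes, did not overlap either, at 6.95 to 7.07 in CR and 7.10 to 7.12 in Con (-0.09, SE 0.04, adjusted p = 0.355).

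Pdgfrb, the receptor through which endothelial PDGF recruits pericytes, differed by -0.05 (SE 0.05, adjusted p = 0.671). Kcnj8 and Abcc9, the pore and regulatory subunits of the pericyte potassium channel, differed by -0.08 (adjusted p = 0.527) and -0.04 (adjusted p = 0.787). Notch3, the Notch receptor of mural cells, was the single mural gene with a positive difference, 0.10 (SE 0.07, adjusted p = 0.537). The pericyte genes thus ranged from -0.38 for Rgs5 to 0.10 for Notch3.

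**Figure D2:**
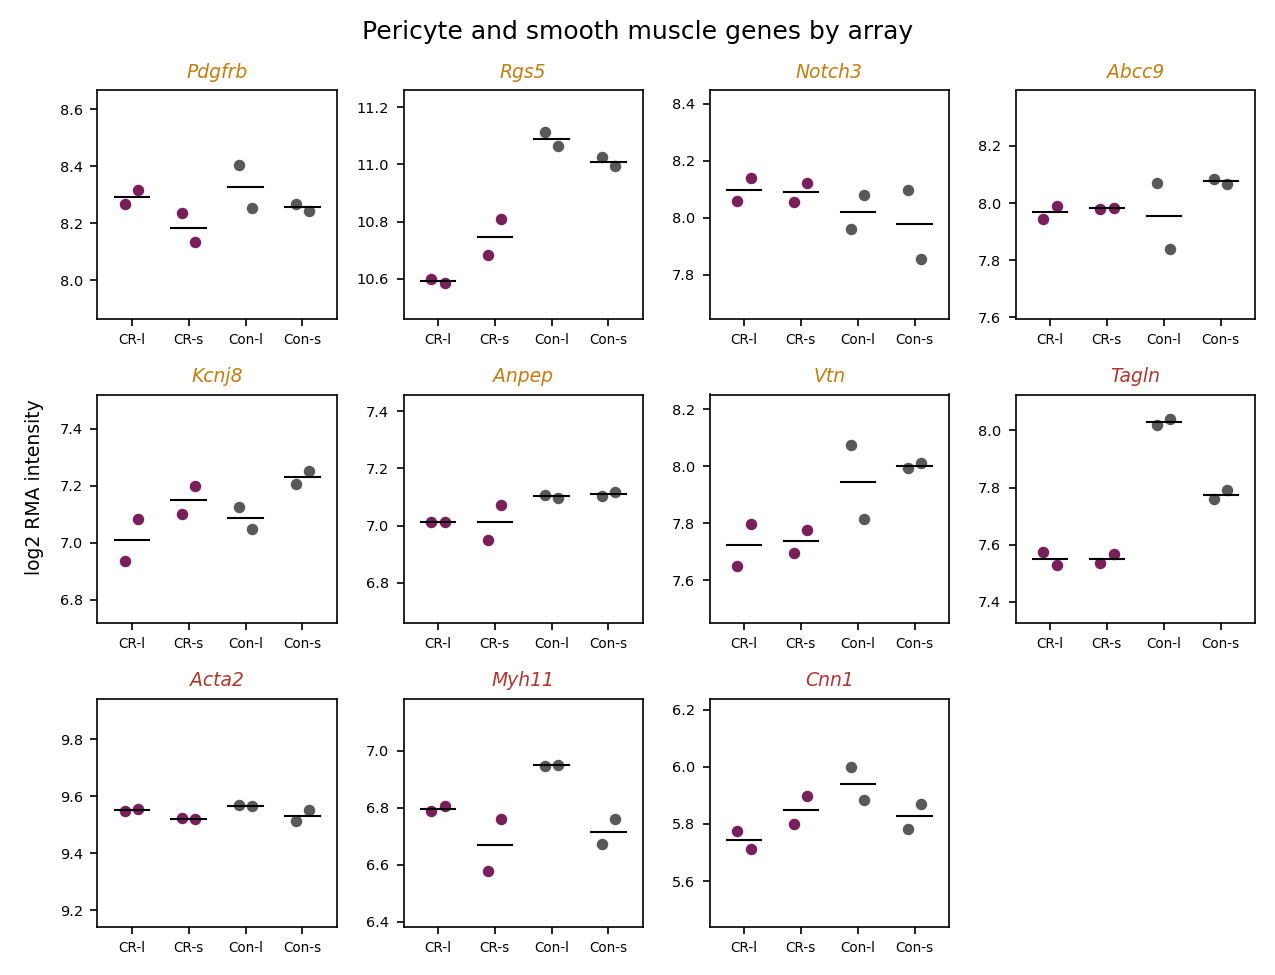
Log2 RMA intensity of the 11 pericyte (gold titles) and smooth muscle (red titles) genes in each array; points are arrays A and B, bars are group means, CR is purple and Con is grey, and every panel spans the same log2 range around its own mean. The CR arrays of Rgs5 (10.58 to 10.81) and Tagln (7.53 to 7.57) lie below the Con arrays, while those of Acta2 lie among them.

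In the endothelial core, the growth factor receptors did not move as a group. Kdr, the main signalling receptor for VEGF, had 7.11 and 7.22 in CR-l and 7.15 and 7.07 in CR-s, against 7.60 and 7.44 in Con-l and 7.29 and 7.37 in Con-s. All 4 CR arrays lay below all Con arrays, and the difference of -0.29 did not pass (SE 0.06, 95% interval -0.42 to -0.15, adjusted p = 0.0716). Flt1, the VEGF receptor that acts largely as a decoy, had 8.49 and 8.51 in CR-l and 8.51 and 8.52 in CR-s, against 8.49 and 8.51 in Con-l and 8.44 and 8.55 in Con-s. Its difference was 0.01 (95% interval -0.09 to 0.11, adjusted p = 0.937).

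Tek, the angiopoietin receptor, differed by -0.03 (SE 0.06, adjusted p = 0.871), and its partner receptor Tie1 by -0.13 (SE 0.05, adjusted p = 0.296). Eng, the TGF-beta co-receptor endoglin, had 8.75 and 8.69 in CR-l and 8.80 and 8.80 in CR-s, against 9.01 and 8.95 in Con-l and 8.89 and 8.92 in Con-s. These groups did not overlap, and the difference of -0.18 did not pass (SE 0.04, adjusted p = 0.0975).

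Junction and adhesion genes of the endothelial core lay between -0.12 and 0.01. Cldn5, the claudin that seals brain endothelium, had 8.15 and 8.21 in CR-l and 8.09 and 8.16 in CR-s, against 8.21 and 8.07 in Con-l and 8.11 and 8.18 in Con-s. The arrays of both diets covered the same range, and the difference was 0.01 (95% interval -0.11 to 0.12, adjusted p = 0.964). Cdh5, VE-cadherin, differed by -0.09 (adjusted p = 0.432), the adhesion molecule Pecam1 by -0.11 (adjusted p = 0.382) and Esam, another junctional adhesion molecule, by -0.12 (adjusted p = 0.266).

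Egfl7, a matrix protein secreted by endothelium, differed by -0.12 (SE 0.07, adjusted p = 0.443). The endothelial transcription factors Sox17 and Sox18 had opposite signs, at 0.13 (SE 0.05, adjusted p = 0.278) and -0.09 (SE 0.07, adjusted p = 0.612). Sox17 did not overlap between diets, with 7.49 to 7.61 in CR and 7.33 to 7.47 in Con.

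Barrier genes had more positive than negative differences, and none passed. Of the tight junction genes, Ocln, which encodes occludin, had 7.30 and 7.32 in CR-l and 7.34 and 7.29 in CR-s, against 7.19 and 7.24 in Con-l and 7.15 and 7.18 in Con-s (0.12, SE 0.04, adjusted p = 0.214). Tjp1, the scaffold protein that ties junctions to actin and is not confined to endothelium, had 10.20 and 10.23 in CR-l and 10.25 and 10.27 in CR-s, against 10.38 and 10.39 in Con-l and 10.32 and 10.36 in Con-s (-0.12, SE 0.04, adjusted p = 0.195). Both genes separated the diets without overlap, in opposite directions.

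Itm2a, a membrane protein gene enriched in brain endothelium, had 9.43 and 9.40 in CR-l and 9.43 and 9.37 in CR-s, against 9.83 and 9.57 in Con-l and 9.70 and 9.84 in Con-s. The CR arrays were tight and the Con arrays spread, and the difference of -0.32 did not pass (SE 0.07, adjusted p = 0.0829). With trend and robust variance moderation Kdr, Itm2a, Eng and Tjp1 passed beside Rgs5 and Tagln, where 5.13% of all genes passed.

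Among the nutrient transporters, Slc2a1, the barrier glucose transporter, differed by 0.04 (95% interval -0.05 to 0.13, adjusted p = 0.694), and Slc7a5, which carries large neutral amino acids, by 0.12 (SE 0.05, adjusted p = 0.334). Mfsd2a takes up lipids carrying docosahexaenoic acid and in mice restrains transcytosis. It had 8.95 and 9.39 in CR-l and 8.93 and 9.08 in CR-s, against 8.78 and 8.75 in Con-l and 8.95 and 8.82 in Con-s. The single high array was CR-l replicate B, and the difference was 0.26 (SE 0.10, adjusted p = 0.247).

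The efflux transporter Abcg2 had the most scattered values of the set. It had 7.21 and 7.08 in CR-l and 6.40 and 6.20 in CR-s, against 6.26 and 5.54 in Con-l and 6.67 and 5.51 in Con-s. The replicates of Con-s were 1.16 apart, and the difference of 0.73 had a 95% interval of 0.12 to 1.34 (SE 0.26, adjusted p = 0.24). Abcb1a, which encodes P-glycoprotein, differed by 0.12 (SE 0.05, adjusted p = 0.33), and the organic anion transporter Slco1a4 by -0.05 (SE 0.05, adjusted p = 0.628).

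**Figure D3:**
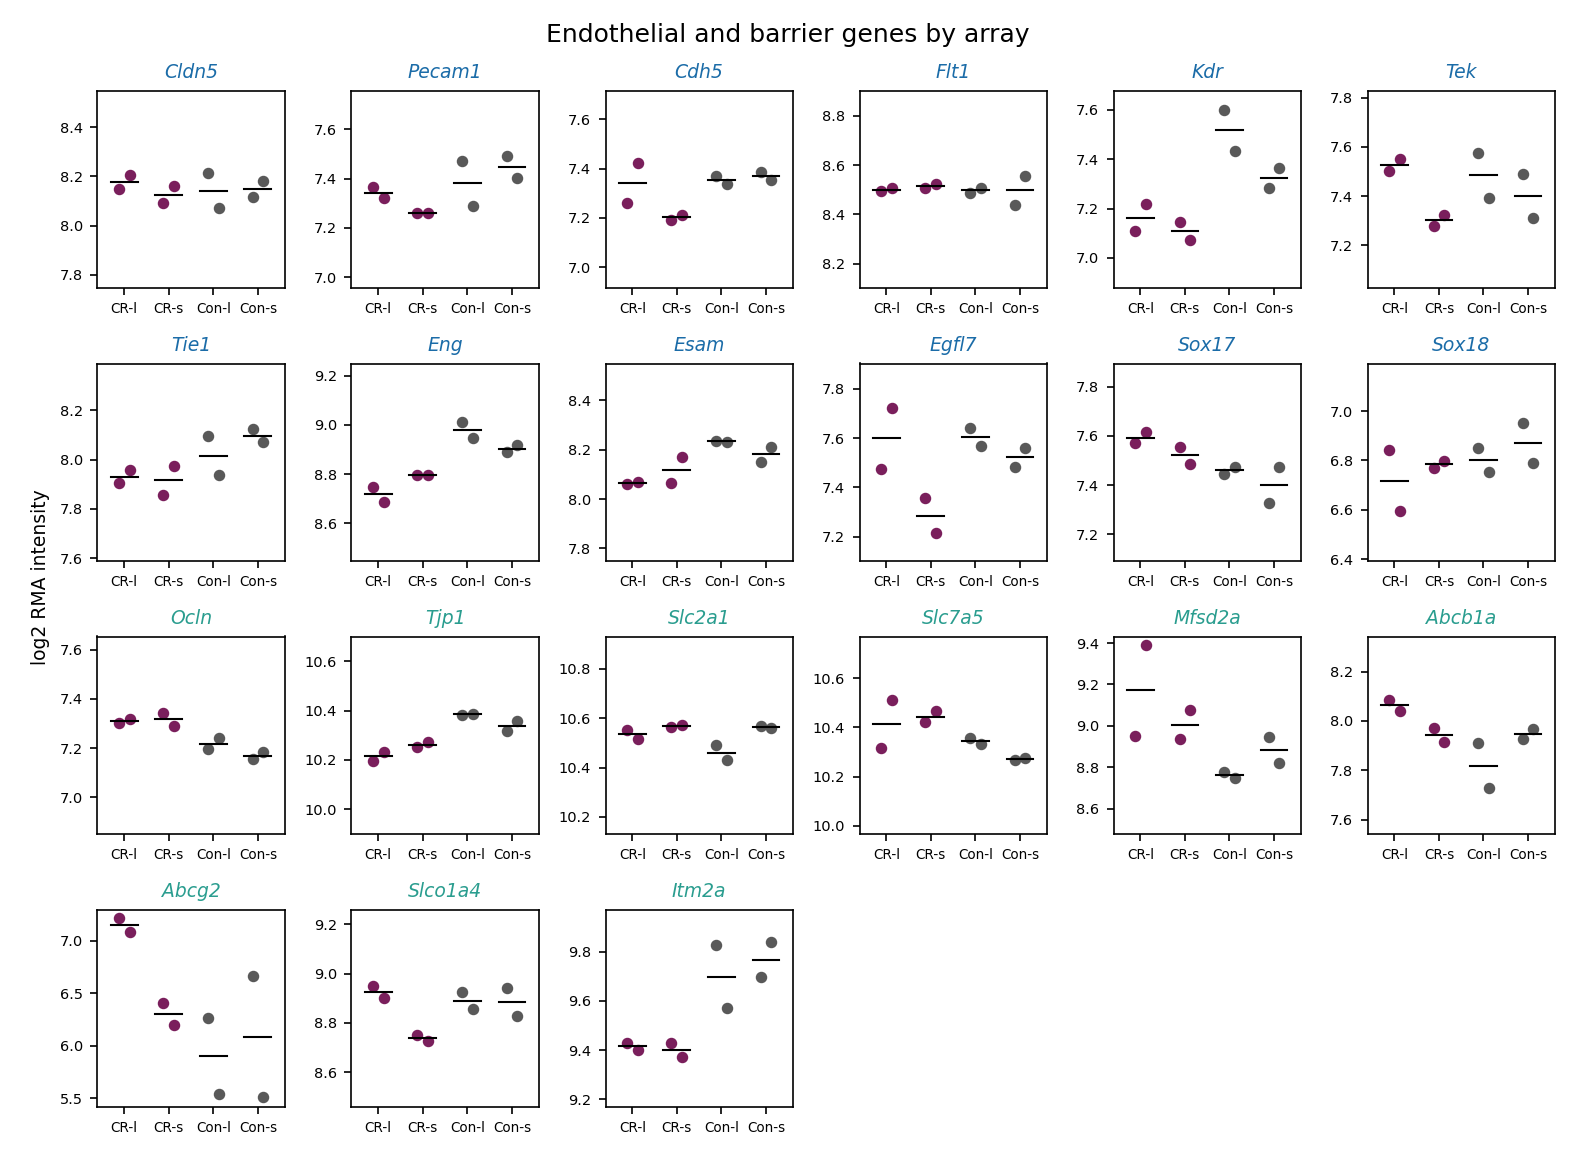
Log2 RMA intensity of the 12 endothelial core (blue titles) and 9 barrier (green titles) genes in each array; points are arrays A and B, bars are group means, CR is purple and Con is grey, and the axes of Mfsd2a and Abcg2 span a wider log2 range than the others. Kdr, Eng, Itm2a and Tjp1 show all CR arrays below all Con arrays, Ocln and Sox17 show the opposite order, and Cldn5 and Flt1 show none.

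Set side by side, 3 of the 4 classes had negative medians. The median log2 difference was -0.10 in the endothelial core (9 of 12 genes negative), 0.12 in the barrier genes (3 of 9), -0.08 in pericyte genes (6 of 7) and -0.09 in smooth muscle genes (4 of 4). Over all 14506 genes the median was 0.00, and 49.7% were negative. Mural genes together had a median of -0.09 with 10 of 11 negative, and endothelial core and barrier genes together -0.05 with 12 of 21 negative. Genes of a class share cells and arrays, so these counts carry no test.

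The arrays of CR and Con did not overlap in 10 of the 32 genes (31.2%), against 11.2% of all genes. In 8 of them CR was lower (Kdr, Eng, Tjp1, Itm2a, Rgs5, Anpep, Vtn and Tagln), against 6.67% of all genes, and in 2 CR was higher (Sox17 and Ocln), against 4.52%. Genes with an unadjusted limma p under 0.05 numbered 13 (40.6%) against 15.8% of all genes. Of these, 9 were lower, against 9.04% of all genes lower at that p, and 4 were higher, against 6.71% of all genes.

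The mean of each class was also taken per array, as the mean log2 deviation from the 8-array mean. In endothelial core genes it was -0.03 and 0.00 in CR-l and -0.08 and -0.07 in CR-s, against 0.10 and 0.01 in Con-l and 0.03 and 0.03 in Con-s. In pericyte genes it was -0.10 and -0.04 in CR-l and -0.07 and -0.01 in CR-s, against 0.09 and 0.00 in Con-l and 0.08 and 0.05 in Con-s. All CR arrays lay below all Con arrays in both classes, with Con-l replicate B just above the highest CR array. These gaps are narrow, and 1 gene in each class is enough to make them. In Con-l replicate B Kdr had 7.44 (8-array mean 7.28) and Rgs5 had 11.07 (8-array mean 10.86). In smooth muscle genes it was -0.05 and -0.07 in CR-l and -0.11 and -0.04 in CR-s, against 0.16 and 0.14 in Con-l and -0.04 and 0.02 in Con-s. The Con-l arrays stood above the other 6, which overlapped. In barrier genes the CR-l arrays stood highest, at 0.10 and 0.14, where the other 6 lay between -0.15 and 0.04. That height rests largely on Abcg2, which had 7.21 and 7.08 in CR-l against an 8-array mean of 6.36. Over mural genes together the CR arrays lay between -0.09 and -0.02 and the Con arrays between 0.04 and 0.12. That mural mean includes Rgs5 and Tagln, which passed. Over endothelial core and barrier genes together the diets overlapped, at -0.05 to 0.06 in CR and -0.06 to 0.06 in Con.

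**Figure D4:**
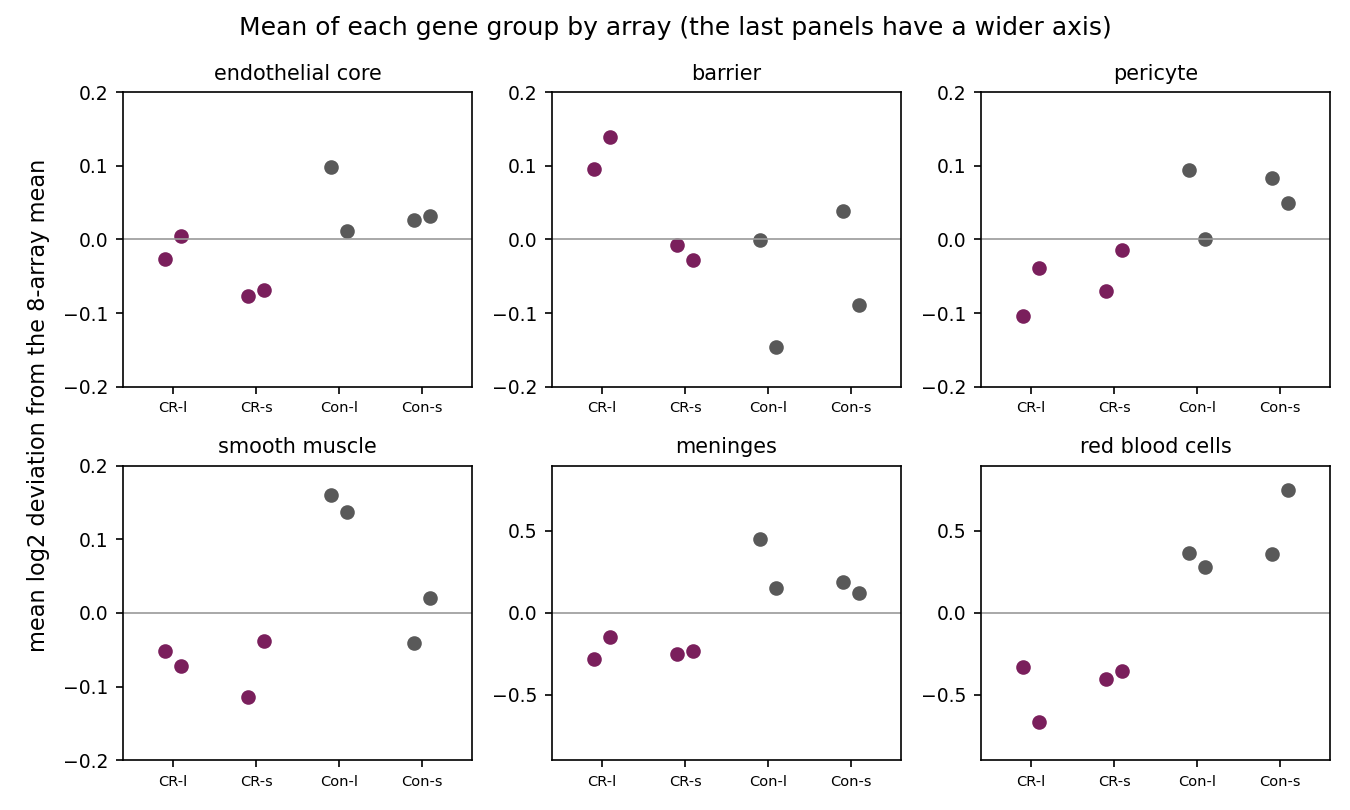
Mean log2 deviation from the 8-array mean of each vessel gene class and of meningeal and red blood cell genes, 1 point per array (A left, B right), CR in purple and Con in grey; the meninges and red blood cell panels have a wider axis. Meningeal and red blood cell genes separate CR from Con. Endothelial core and pericyte genes do so only narrowly, with Con-l replicate B just above the highest CR array. Barrier and smooth muscle genes do not separate the diets.

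Genes of other cells that surround vessels or fill them moved in the same comparison. All 7 measured red blood cell genes of 13 listed were lower in CR, 5 of them passing. Their summed intensity, most of it from Hbb and Hbb-b1, was 1370 to 2183 in CR arrays and 3859 to 5836 in Con arrays. Of all genes, 0.882% passed as lower and 49.7% had a negative difference. Hbb and Hbb-b1, the beta globin genes, fell by 1.29 (adjusted p = 0.0325) and fell by 1.42 (adjusted p = 0.0223) on the log2 scale. All 17 measured meningeal genes of 19 were lower, 5 passing, with sums of 4116 to 4676 in CR and 6845 to 8984 in Con. Their brightest genes were Ptgds, a prostaglandin D synthase (-1.54, adjusted p = 0.0133), and Dcn, the matrix proteoglycan decorin (-0.34, adjusted p = 0.262). Ptgds had the largest part in the gap between the meningeal sums, while the median difference of that list was -0.35. The dimmest red blood cell gene had a mean log2 intensity of 3.70, below the dimmest vessel gene (Cnn1, 5.84), and the dimmest meningeal gene had 5.88. The part of these lists in the mural and endothelial differences was not tested.

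The meningeal mean deviation was -0.28 and -0.15 in CR-l and -0.25 and -0.23 in CR-s, against 0.45 and 0.15 in Con-l and 0.19 and 0.12 in Con-s. All CR arrays lay below all Con arrays, with Con-l replicate A highest.

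Markers of brain cells gave a mixed picture beside the vessel genes, where 49.7% of all genes were lower and 1.21% passed. All 11 measured oligodendrocyte genes of 12 were lower in CR, 3 passing, with sums of 37626 to 41058 in CR and 43892 to 48729 in Con; the brightest, Mbp and Mobp, had -0.15 (adjusted p = 0.167) and -0.23 (adjusted p = 0.0702). Of the astrocyte genes 5 of 11 were lower, 1 passing (Gfap), with sums of 24234 to 25622 in CR and 25488 to 26561 in Con and with Slc1a2 and Aldoc, the brightest, at 0.05 and 0.01. Of the genes of microglia and perivascular macrophages 4 of 12 were lower and none passed, with sums of 4416 to 4856 in CR and 4391 to 4728 in Con and with Cx3cr1 at -0.04 and P2ry12 at 0.09. Of the choroid plexus genes 5 of 11 were lower, 1 passing (Kcnj13), with sums of 826 to 851 in CR and 832 to 922 in Con and with Kcne2 at 0.18 and Aqp1 at -0.09. Of the hypothalamic marker genes 7 of 16 were lower, 1 passing (Oxt, the oxytocin gene, at -0.38, adjusted p = 0.0496), and 2 passed as higher (Npy and Agrp, which encode feeding peptides), with sums of 14263 to 15085 in CR and 13820 to 16711 in Con.

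A wider reading of the vessel wall came from 146 further genes in 5 lists, of which 120 were measured. In the averaged diet comparison 1 of them was lower and passed, the receptor gene Tgfbr1, and 1 was higher and passed, the thiamine transporter gene Slc19a3. These 2 of 120 are a share near the 1.21% of all genes that passed. Tgfbr1 carries TGF-beta signals in many cell types, mural and endothelial cells among them. It had 7.73 and 7.79 in CR-l and 7.69 and 7.71 in CR-s, against 8.15 and 8.07 in Con-l and 8.005 and 7.90 in Con-s, and fell by 0.30 on the log2 scale (SE 0.05, adjusted p = 0.0372). Slc19a3 had 8.72 and 8.63 in CR-l and 8.52 and 8.81 in CR-s, against 7.73 and 7.83 in Con-l and 8.26 and 7.94 in Con-s, and rose by 0.73 on the log2 scale (SE 0.09, adjusted p = 0.0223). The diets did not overlap in either gene.

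Further endothelial genes had negative differences in 17 of 29 (median -0.04), where 49.7% of all genes were negative. At an unadjusted p under 0.05 there were 7 of them, all lower, where 9.04% of all genes were lower at that p. Cd34, a surface sialomucin of vessel endothelium, had 8.14 and 8.32 in CR-l and 8.03 and 8.09 in CR-s, against 8.68 and 8.52 in Con-l and 8.38 and 8.56 in Con-s. Its diets did not overlap, and the difference of -0.39 just missed the threshold (SE 0.07, adjusted p = 0.0503). Aplnr, the apelin receptor, differed by -0.35 (adjusted p = 0.0785), and Cd93, an endothelial surface glycoprotein, by -0.37 (adjusted p = 0.104).

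Further mural genes had negative differences in 16 of 28 (median -0.02), where 49.7% of all genes were negative. At an unadjusted p under 0.05, 2 were lower and 1 was higher, against 9.04% and 6.71% of all genes. These shares are near those of all genes. Mcam, an adhesion molecule of mural cells and endothelium, had 8.94 and 9.02 in CR-l and 8.92 and 8.94 in CR-s, against 9.25 and 9.30 in Con-l and 9.10 and 9.18 in Con-s. The groups did not overlap, and the difference of -0.25 just missed the threshold (SE 0.04, adjusted p = 0.0502). Srf, the serum response factor that drives contractile genes, differed by -0.18 (adjusted p = 0.123), and the tropomyosin gene Tpm1 by 0.11 (adjusted p = 0.259).

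Angiogenic signalling genes split 21 negative to 12 positive (median -0.03, 1 passing). At an unadjusted p under 0.05 there were 6 of 33, all lower, where 9.04% of all genes were lower at that p. Further barrier genes split 11 negative to 10 positive (median -0.02, 1 passing). Of these 21, 1 was lower and 3 were higher at an unadjusted p under 0.05, against 9.04% and 6.71% of all genes. Basement membrane genes split 3 negative to 6 positive (median 0.00, none passing), with Col4a1, a type IV collagen chain, at -0.15 (adjusted p = 0.231), the linker nidogen gene Nid2 at -0.15 (adjusted p = 0.308) and the laminin chain gene Lama5 at 0.08 (adjusted p = 0.538). Of the 9 measured, 2 were lower and 0 higher at an unadjusted p under 0.05, against the same shares of all genes.

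The diet difference was then read under each treatment, which uses separate arrays. No vessel gene passed under saline, where 0% of all genes passed, or under leptin, where 0.0207% did. The sign was the same under both treatments in 26 of 32 vessel genes (81.2%), against 60.5% of all genes, and it was negative under both in 18 of 32 (56.2%), against 30.9%. Rgs5 differed by -0.50 under leptin (SE 0.06, adjusted p = 0.0605) and by -0.26 under saline (SE 0.06, adjusted p = 0.369). Tagln differed by -0.48 under leptin (SE 0.06, adjusted p = 0.0605) and by -0.23 under saline (SE 0.06, adjusted p = 0.378).

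Kdr followed the same order, at -0.35 under leptin (adjusted p = 0.143) and -0.22 under saline (adjusted p = 0.514), as did Eng, at -0.26 (adjusted p = 0.143) and -0.11 (adjusted p = 0.675). Itm2a and Vtn had the larger size under saline, with -0.28 under leptin against -0.37 under saline for Itm2a, and -0.22 against -0.27 for Vtn. The 6 genes whose sign differed between treatments were Cldn5, Tek, Abcb1a, Slco1a4, Abcc9 and Cnn1. Abcb1a differed by 0.24 under leptin (adjusted p = 0.223) and by -0.00 under saline (adjusted p = 0.996), and Cnn1 by -0.20 (adjusted p = 0.287) and 0.02 (adjusted p = 0.969). Genes with an unadjusted p under 0.05 numbered 11 under leptin, against 14.2% of all genes, and 10 under saline, against 8.5%.

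**Figure D5:**
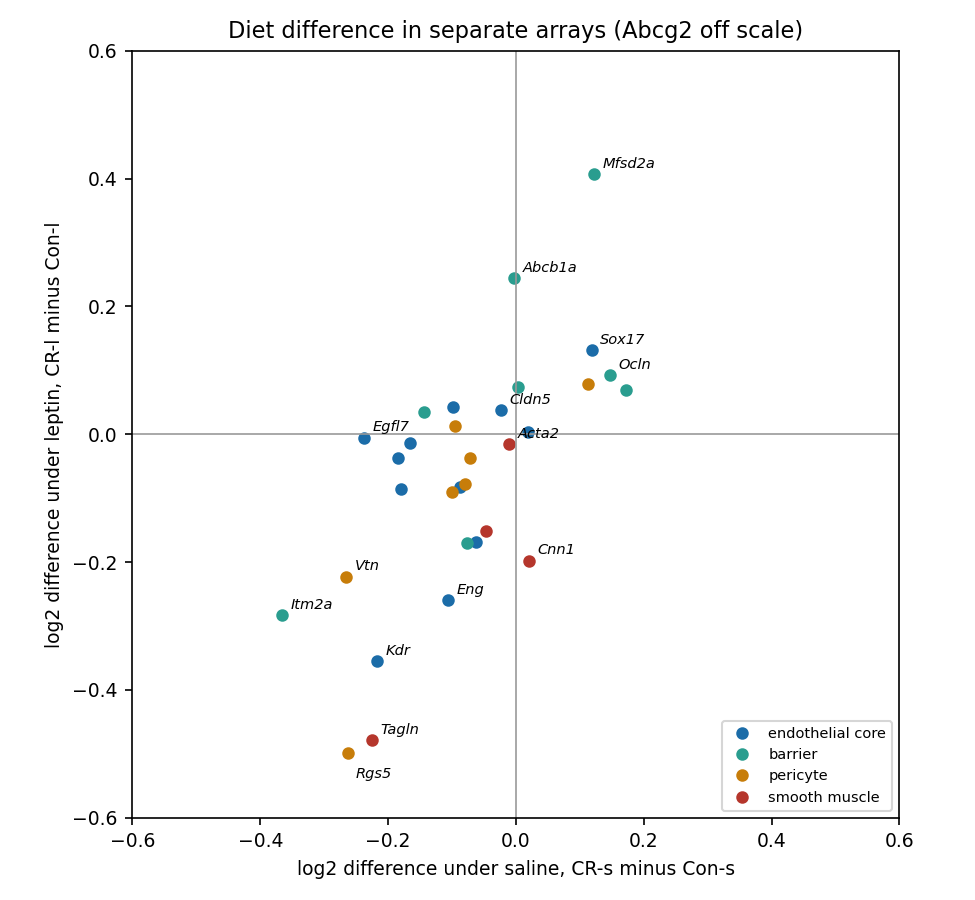
Log2 diet difference under leptin (CR-l minus Con-l, vertical axis) against that under saline (CR-s minus Con-s, horizontal axis) for 31 vessel genes, coloured by class; Abcg2 (1.25 under leptin, 0.21 under saline) lies outside the vertical range. Rgs5 (-0.50 and -0.26) and Tagln (-0.48 and -0.23) lie lowest, and 18 genes are negative under both treatments.

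Whether the diet difference depended on leptin was tested directly as an interaction, and no vessel gene passed, as no gene of the array did (0%). Tagln had the smallest p among the vessel genes (-0.25, SE 0.08, limma adjusted p = 0.898), followed by Rgs5 (-0.23, SE 0.09, limma adjusted p = 0.898). These 2 genes were the only vessel genes at an unadjusted p under 0.05, against 5.15% of all genes. The larger size of their diet difference under leptin therefore did not pass as a difference between treatments. For Abcb1a the interaction was 0.25 (95% interval -0.00 to 0.49, adjusted p = 0.898), and for Abcg2 1.03 (95% interval -0.19 to 2.26, adjusted p = 0.898).

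Leptin after maternal restriction (CR-l against CR-s) left no vessel gene past the threshold, as it left none of all genes (0%). Egfl7 had 7.48 and 7.72 in CR-l against 7.36 and 7.21 in CR-s, a difference of 0.31 (SE 0.10, adjusted p = 0.808). Tek had 7.50 and 7.55 in CR-l against 7.28 and 7.32 in CR-s (0.23, SE 0.09, adjusted p = 0.808), and Slco1a4 had 8.95 and 8.90 against 8.75 and 8.73 (0.19, SE 0.07, adjusted p = 0.808). Rgs5 differed by -0.16 (SE 0.06, adjusted p = 0.808), which placed CR-l farther from the Con groups than CR-s, and Tagln by 0.00 (SE 0.06, adjusted p = 0.997). An unadjusted p under 0.05 was reached by 4 vessel genes, Egfl7, Tek, Slco1a4 and Rgs5, against 5.85% of all genes.

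In offspring of normally fed mothers (Con-l against Con-s) no vessel gene passed either, where again 0% of all genes did. Tagln differed by 0.25 (SE 0.06, limma adjusted p = 0.997). Myh11 had 6.95 and 6.95 in Con-l against 6.67 and 6.76 in Con-s (0.23, SE 0.07, adjusted p = 0.997), and Kdr differed by 0.19 (SE 0.08, adjusted p = 0.997). All 4 smooth muscle genes had positive differences there, with a median of 0.17 against -0.00 for all genes. These 3 vessel genes reached an unadjusted p under 0.05, against 4.19% of all genes. In the same comparison meningeal genes were higher in Con-l than in Con-s in 16 of 17 (median 0.11), oligodendrocyte genes were higher in 11 of 11 (median 0.08) and hypothalamic marker genes were lower in 16 of 16 (median -0.14), none of them passing. Their part in the smooth muscle values was not tested.

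The sign of the leptin difference was the same in CR and in Con in 15 of 32 vessel genes (46.9%), near the 50.4% of all genes. It was the same in 8 of 11 mural genes and in 7 of 21 endothelial core and barrier genes, counts that carry no test. Averaged over diets no vessel gene passed (0% of all genes did), with the smallest p for Myh11 (0.18, SE 0.05, limma adjusted p = 0.913) and Tagln (0.13, SE 0.04, limma adjusted p = 0.913). An unadjusted p under 0.05 was reached by 5 vessel genes, against 4.87% of all genes. The leptin and saline arrays did not overlap in 2 vessel genes, Myh11 with leptin higher and Slc2a1 with leptin lower, against 2.37% of all genes. Slc2a1 had 10.55 and 10.52 in CR-l and 10.49 and 10.43 in Con-l, against 10.56 and 10.57 in CR-s and 10.57 and 10.56 in Con-s (-0.07, SE 0.04, adjusted p = 0.913).

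The last comparison (CR-l against Con-s) sets offspring with both restriction and leptin beside offspring with neither. No vessel gene passed, against 0.0138% of all genes, and 9 had an unadjusted p under 0.05, against 12.2% of all genes. Rgs5 differed by -0.42 (SE 0.06, adjusted p = 0.11), Tagln by -0.22 (SE 0.06, adjusted p = 0.224), Itm2a by -0.35 (SE 0.10, adjusted p = 0.256) and Kcnj8 by -0.22 (SE 0.07, adjusted p = 0.33). Kdr differed by -0.16 (SE 0.08, adjusted p = 0.463). This comparison shares arrays with those above, so its values are not a further support of them.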

How the data were processed

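Hypothalamic RNA of 8 offspring samples was measured on 1-colour arrays, 2 per group. The deposited table holds linear intensities, 1 per probe set and array, made by the authors with RMA in Affymetrix Expression Console, per the submitters' processing notes; versions are not given in the sources used here. They were log2-transformed and not normalized again. Of 29215 probe sets, 15310 had 1 gene symbol and 323 several; symbols came from Entrez numbers (15279), accessions (6) or the array annotation (25). The brightest probe set was kept for the 527 genes with several, giving 14506 genes with no filter on dim ones.

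A single limma model (limma 3.58.1, R 4.3.3, lmFit and eBayes) fitted 4 group means to the 8 arrays, with 4 residual and 3.21 prior degrees of freedom. P-values are two-sided and adjusted over all genes by Benjamini and Hochberg's method, with 0.05 as the threshold for passing; intervals are at 95%. The script was tested on simulated data. The number of arrays limits the precision. The members and gene lists were chosen with earlier results of these data known, so their counts carry no test of the list. All measured members were named; of the 5 further vessel lists, members that passed, otherwise the 3 with the smallest p; and of each list of other cells, the 2 brightest. Gfap, Kcnj13, Npy and Agrp were named after their values were seen. The deviations of the replicate letters were only weakly correlated between groups (-0.06 to 0.11), which gave no sign of pairing but cannot exclude it. The alternatives were other normalizations, variance moderation, an offset of 16, the upper 60 percent of genes, other probe sets, smaller fits, a replicate block and leaving out each array.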

Additional observations from a re-analysis of the deposited data

Results flagged for a closer look

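Within the 4 CR or the 4 Con arrays of each gene, 64 groups were looked at for a single array far from the others, which chance gives in about 1 in 20 groups. There were 3 such arrays. Esam, the endothelial adhesion molecule, had 8.17 in CR-s replicate B, where the other CR arrays had 8.06 to 8.07. Pdgfrb, the pericyte receptor, had 8.40 in Con-l replicate A, where the other Con arrays had 8.25 to 8.27. Abcc9, the regulatory channel subunit, had 7.84 in Con-l replicate B, where the other Con arrays had 8.07 to 8.09. None of these 3 genes passed in any comparison.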

How the results depend on the processing

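In the averaged diet comparison 2 vessel genes passed, Rgs5 and Tagln. With trend and robust moderation 6 passed, with an offset of 16 it was 4, with the upper 60 percent of genes 5 of the 28 tested, with all probe sets tested together 0 (none of all genes, smallest adjusted p 0.056) and with diet as the only factor 3. Quantile normalization, cyclic loess, the mean of probe sets, the dimmer probe set and the replicate block each gave 2. Without 1 array the count was 0 each time (lowest 0, highest 0), where 0 to 27 of all genes passed and 3 residual degrees of freedom are left, with the lone array of a group assumed to vary like the others. With the replicate block of letters A and B, 87 of all genes passed, against 175; Rgs5 and Tagln had adjusted p-values of 0.0461 and 0.0446, and no vessel gene changed its call in any of the 8 comparisons. Of all genes, 744 passed with trend and robust moderation, 609 with the upper 60 percent, 345 with the offset and 267 with diet alone.

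Counts of 0 also moved. Under saline 1 vessel gene passed (Rgs5) with trend and robust moderation. Under leptin 4 passed with trend and robust moderation, 1 with cyclic loess (Tagln), 2 with the offset and 4 with the upper 60 percent. For CR-l against Con-s 1 passed (Rgs5) with each of trend and robust moderation, the offset and the upper 60 percent. The share of all genes that passed in these comparisons under these settings is not given here. The counts are therefore not shown to be particular to vessel genes. In the averaged diet comparison, trend and robust moderation, the offset and the upper 60 percent each raised the count of all genes passing. The smooth muscle median moved to -0.18 with the upper 60 percent, where 2 of its genes are left. The causes were not tested beyond the number of genes tested.

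Signs turned only when 1 array was left out, for genes close to level. Cldn5 ranged from -0.0280 to 0.0427, Flt1 from -0.0181 to 0.0397, Tek from -0.0735 to 0.0173 and Abcc9 from -0.0993 to 0.0166. The dimmer probe set of Abcc9 gave -0.13 (adjusted p = 0.252), where the brighter one gave -0.04. The count of genes whose diets do not overlap was 9 to 13 across settings, against 10. Leaving out an array can only keep or raise this count, so those settings could not have lowered it.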
